A study of Mus musculus with 2 samples.

Results

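The nuclei described here are hippocampal neurons that carry Fyb2, Stard5, Vit, Il16 or Col11a1 transcripts, chosen as a candidate CA2/CA3 pyramidal population. A nucleus was a member when it had at least 500 detected genes and under 5% mitochondrial UMIs, held at least 4 UMIs (unique molecular identifiers, 1 per counted RNA molecule) of these 5 genes with at least 2 of them detected, and stayed within limits on dentate granule (Prox1 plus Glis3, at most 2 UMIs), inhibitory (Gad1 plus Gad2, at most 1) and microglial (Inpp5d plus Runx1, at most 2) transcripts. The rule chose 687 of the 37671 nuclei that passed the limits on genes and mitochondrial UMIs, out of 51450 barcodes. The 5 genes were themselves picked from these data, so their levels in the members are a description.

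The study profiled single nuclei from frozen hippocampus of 8-month-old mice by droplet 3' RNA sequencing, with 1 library per genotype. Both groups carry the 5XFAD transgenes, which express mutant human amyloid precursor protein and presenilin 1 under a neuronal Thy1 promoter. The 5XFAD library is set against a library labelled 5XFAD x MR1 KO, whose label names a knockout of MR1, the molecule that presents antigen to mucosal-associated invariant T cells. Each library pools 1 female and 1 male mouse, so no difference between the libraries has a replicate and none is tested. Intervals are exact 95% intervals that cover counting error only. Wherever a pair of values follows, the 5XFAD library comes first and the library labelled MR1 KO second.

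CA2 is the short stretch of pyramidal cells between CA3 and CA1. It is known for its role in social memory, for a weak capacity for long-term potentiation at its Schaffer collateral synapses, for dense perineuronal nets and for receptors of vasopressin, oxytocin and mineralocorticoids. CA3 pyramidal cells receive the mossy fibres of the dentate gyrus and excite each other through recurrent collaterals. The transcriptomes of CA2 and CA3 resemble each other more than either resembles CA1, and classical CA2 markers include Amigo2 (a leucine-rich adhesion protein), Rgs14 (a regulator of G protein signalling), Necab2 (a neuronal calcium-binding protein), Ptpn5 (the striatal-enriched phosphatase STEP), Ntf3 (neurotrophin-3) and Avpr1b (the vasopressin 1b receptor).

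The libraries held 106861726 and 85678909 UMIs, with a median of 3135 and 2458 per barcode. Members were deeper than the rest, with medians of 8915 and 7160 UMIs against 4066 and 2767 over all nuclei that passed the limits. The libraries shared 182 barcodes, which 1 and 2 members carried, and no barcode marked a member in both. UMIs of Xist together with a Y-linked gene, a sign that nuclei of both mice shared a droplet, occurred in 12.5% and 14.7% of members. Mr1 had 96 and 129 UMIs in all barcodes, 0.898 and 1.51 CPM (a gene's UMIs over all UMIs of the set, scaled to 1000000), so its level was not lower in the library labelled MR1 KO. Which part of the gene was deleted is not given in the sources used here, and 3' tags outside that part would not check the label. In the members Mr1 had 1 and 3 UMIs. Thy1 stood at 280.3 and 301.8 CPM and App at 585 and 598 CPM.

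Of the 5 genes of the rule, Stard5, which encodes a lipid-binding START-domain protein, was the most widespread, detected in 92.1% and 92.5% of members at 329.8 and 394.7 CPM. Il16, the precursor of interleukin-16, was detected in 58.0% and 62.8%, at 100.9 and 124.0 CPM. Col11a1, a fibrillar collagen chain, was found in 57.8% and 49.4%, at 164.0 and 145.7 CPM. Fyb2, an adaptor protein related to the T cell adaptor Fyb, reached 40.6% and 41.9% of members, at 85.9 and 103.7 CPM, and Vit, the matrix protein vitrin, 28.9% and 31.9%, at 41.1 and 57.7 CPM. Of the members, 174 and 143 showed only 2 of the 5 genes, 120 and 115 showed 3, 55 and 50 showed 4, and 18 and 12 showed all 5. The most frequent pair was Stard5 with Il16, in 52.9% and 56.9% of members, and the least frequent were Fyb2 with Vit in the 5XFAD library, in 11.7%, and Vit with Il16 in the other, in 14.1%.

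Stard5 and Il16 may not be independent readings. In GRCm38 with the GENCODE M21 annotation, Stard5 lies on the plus strand of chr7:83631959-83653127 and Il16 on the minus strand of chr7:83642825-83745726, so the genes overlap by 10303 bases on opposite strands, and reads from this stretch cannot be told apart unless the counting used strand, a setting not given in the sources used here. For 60 and 68 members these were the only rule genes detected. Without them 307 and 252 members remained, and against the CA3 set of neurons introduced next, 1.1% of genes were then at least 2-fold higher and 0.535% lower in both libraries, with the same 5 CA2 markers among the higher as for all members. Fyb2 lies on chr4:104913456-105016863, Vit on chr17:78508064-78627408 and Col11a1 on chr3:114030540-114220718, all on the plus strand.

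The rule genes set the members apart from other cells by construction. Every comparison set used here was limited to at most 1 UMI of the 5 rule genes, so the sets give no background level for them. Over all nuclei that were not members, Stard5 had a UMI in 19.2% and 11.3% and Fyb2 in 4.01% and 3.16%, at the lower depth given above. The threshold itself fell in a continuum: 145 and 172 nuclei had 3 rule-gene UMIs and met every other condition, against 92 and 92 with exactly 4. Just outside, Grik4 stood at 513 and 703 CPM and Amigo2 at 9.10 and 18.6 CPM, and just inside at 527 and 688 CPM and at 8.04 and 10.9 CPM.

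The members were compared with 3 sets of neurons picked by other markers and holding at most 1 rule-gene UMI. These were a CA3 set (Nectin3 and Grik4, 516 and 834 nuclei) and a CA1 set (Fibcd1, Wfs1 and Mpped1, 130 and 83). The third was a dentate granule set (Prox1 and Glis3, 497 and 687). The members carried markers of excitatory neurons and of CA3. Slc17a7, the vesicular glutamate transporter of cortical and hippocampal principal cells, stood at 215.9 and 272.6 CPM in the members against 252.8 and 322.9 CPM in the CA3 set. Grik4, a kainate receptor subunit concentrated in CA3, or Nectin3, an adhesion protein of CA3 dendrites, had a UMI in 86.9% and 93.4% of members. With every nucleus thinned to 2000 UMIs, Grik4 alone was detected in 61.3% and 71.1% of members, 33.9% and 42.4% of dentate nuclei, 22.5% and 28.75% of CA1 nuclei and 10.4% and 12.3% of inhibitory nuclei, where nuclei that met the rules of more than 1 set were in none. Over the CA1 set, 5 of the 9 CA3 markers tested were at least 2-fold higher in both libraries (Grik4, Nectin3, Cpne4, Homer3 and Rnf182), where 2.3% of 8553 genes passed that fold upward, and over the dentate set 9 of 10 were, against 3.73% of 10433 genes.

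CA2 markers stood above the level of the CA3 set. That set was limited to at most 1 rule-gene UMI, which can also lower genes that accompany the rule genes. The part of this limit in the ratios was not tested, so they are a description. Of 8 CA2 markers with enough UMIs, 5 were at least 2-fold higher than in the CA3 set in both libraries and none was at least 2-fold lower, beside 1.03% of 10899 genes higher and 0.367% lower. Against other neurons fewer passed: 3 of 8 were higher than in the CA1 set (Amigo2, Ntf3 and Necab2), and over the dentate set 2 were higher (Amigo2 and Ccdc3) and 1, Ntf3, was lower. Summed over 12 CA2 markers, the members had 442.1 and 432.5 CPM and the CA3 set 263.8 and 236.0 CPM. The CA1 set had 241.4 and 214.7 CPM and the dentate set 378.8 and 353.3 CPM. Inhibitory nuclei had 429.0 and 241.5 CPM and oligodendrocytes 353.1 and 299.1 CPM. Amigo2 was at 21.2 CPM in the female and 30.1 CPM in the male 5XFAD mouse, and at 37.2 and 41.1 CPM in the female and male mouse of the library labelled MR1 KO. In the CA3 set it was at 8.59 and 9.16 CPM. All 4 mice thus lay above the CA3 nuclei of both libraries, and the ratios were 2.60 (1.74 to 3.96) and 4.17 (2.91 to 6.06). Amigo2 lies on the minus strand of chr15:97244125-97247287.

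Necab2 stood at 38.3 and 46.8 CPM in the members against 11.2 and 15.1 CPM in the CA3 set, ratios of 3.42 (2.44 to 4.87) and 3.11 (2.31 to 4.20). Rgs14, which in CA2 restrains synaptic plasticity, stood at 17.1 and 20.2 CPM against 5.49 and 9.36 CPM, ratios of 3.12 (1.91 to 5.28) and 2.16 (1.43 to 3.27). Ptpn5 was 2.08-fold and 2.22-fold higher, at 124.3 and 134.8 CPM. These genes were not restricted to the members: Ptpn5 was at 130.3 and 87.6 CPM in inhibitory nuclei, and Rgs14 at 13.1 and 15.1 CPM in the dentate set. Ntf3 was 14.1-fold and 3.86-fold above the CA3 set, at 16.9 and 16.5 CPM, yet the dentate set had more, 56.0 and 33.0 CPM.

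Other CA2 markers separated the members less or were too rare. Ccdc3, a secreted coiled-coil protein, was at 35.9 and 37.5 CPM, 1.81-fold and 1.43-fold over the CA3 set. Pcp4, a calmodulin regulator often used to outline CA2, did not set the members apart: it stood at 120.5 and 79.0 CPM, against 108.0 and 72.0 CPM in the CA3 set and 223.9 and 141.0 CPM in oligodendrocytes, and its ratio over CA3 was 1.11 (0.976 to 1.27) and 1.10 (0.921 to 1.30). Avpr1b had 5 and 6 UMIs in the members, and 0 and 1 in the CA3 set. Actn2, an actinin of dendritic spines, was at 42.7 and 28.8 CPM against 43.6 and 34.0 CPM. Amigo2, Avpr1b, Ccdc3 or Rgs14 had a UMI in 42.2% and 46.3% of members, so most members showed none of these 4 genes at this depth.

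**Figure D1:**
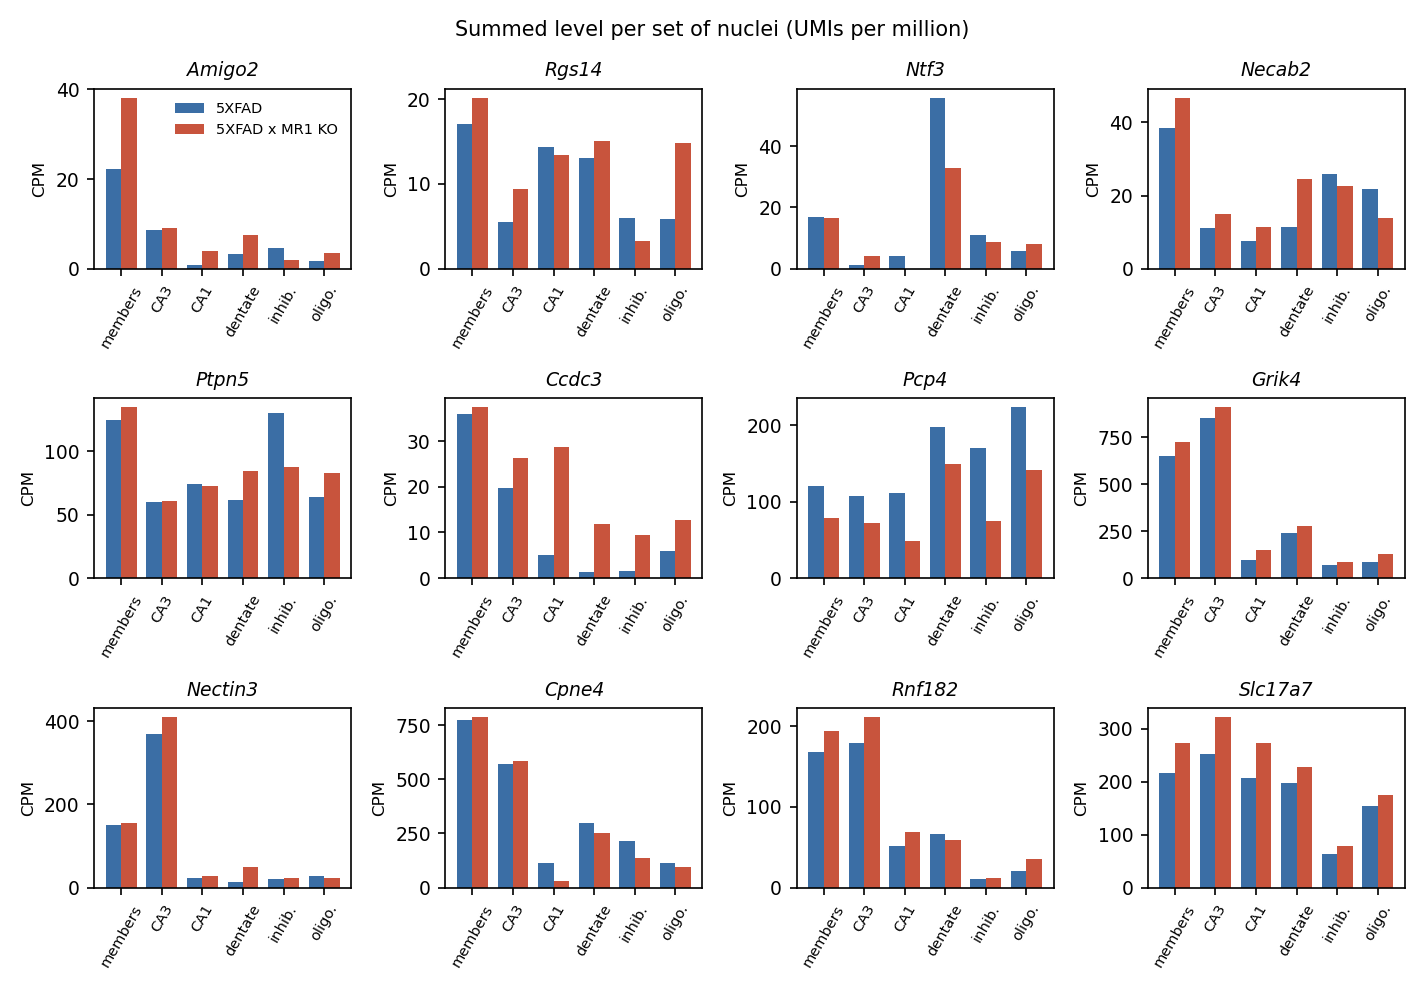
Bars give the summed level, in CPM (vertical axes, from 0), of 7 CA2 markers, 4 CA3 markers and the excitatory marker Slc17a7 in the members and in 5 other sets of nuclei, in the 5XFAD library (blue) and the library labelled 5XFAD x MR1 KO (red), with no replicates. Amigo2 is highest in the members, Pcp4 is not, and Grik4 and Nectin3, which chose the CA3 set, are highest there.

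The CA3 set was not chosen by 10 of the CA3 markers listed. These summed to 1135 and 1232 CPM in the members and 1041 and 1146 CPM in CA3 nuclei. Most of the members' sum was Cpne4, given below, and each other gene of the 10 had ratios below 1 in both libraries. None of the 10 was at least 2-fold higher in the members and 2 were at least 2-fold lower in both libraries: Iyd, an iodotyrosine deiodinase, with 14 and 12 UMIs and ratios of 0.347 (0.176 to 0.642) and 0.480 (0.232 to 0.921), and the cadherin Cdh24, with 28 and 29 UMIs and ratios of 0.484 (0.299 to 0.763) and 0.499 (0.319 to 0.758). Without the members that carry markers of other regions, described below, none of the 10 was 2-fold lower in both libraries. Cpne4, a copine, was higher, at 772 and 789 CPM against 571 and 583 CPM. Grik4 itself was at 648 and 723 CPM in the members against 853 and 911 CPM in the nuclei chosen by it.

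By the interval bound nearest to 1, the gene that stood farthest above the CA3 set was Hcrtr2, the orexin receptor 2. It stood at 20.7 and 29.2 CPM in the female and male 5XFAD mouse and at 24.8 and 25.7 CPM in those of the library labelled MR1 KO, while the CA3 set had 1.67 and 3.46 CPM. The CA3 value of the 5XFAD library rests on 7 UMIs, and the ratios were 13.35 (6.20 to 34.3) and 9.10 (5.36 to 16.3). All 4 mice had similar levels and lay well above the CA3 set. Inhibitory nuclei had more, 43.7 and 58.4 CPM.

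Osbpl3, an oxysterol-binding protein, was at 57.1 and 40.8 CPM against 11.2 and 5.90 CPM in the CA3 set, ratios of 5.09 (3.70 to 7.15) and 6.92 (4.56 to 10.8). Angpt1, the ligand angiopoietin 1, was 7.12-fold (4.76 to 11.03) and 6.26-fold (4.13 to 9.74) higher, at 47.6 and 38.2 CPM. Lrp2, the endocytic receptor megalin, was rare, at 12.2 and 19.1 CPM against 1.67 and 0.203 CPM in the CA3 set. Its 45 and 51 UMIs in members face 7 and 1 UMIs in the CA3 set and none in inhibitory or oligodendrocyte nuclei, and the second ratio, 93.9, has an interval from 16.1 to 3779. At least 1 Lrp2 UMI was seen in 10.4% and 12.5% of members and in 0.472% and 0.369% of all other nuclei.

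Egfem1, Asic2 and Il1rapl2, far above the CA3 set, were also abundant in other neurons. Egfem1, an EGF-like matrix protein, was at 927 and 1133 CPM against 273.1 and 205.7 CPM in the CA3 set (ratios 3.39, 3.17 to 3.63, and 5.51, 5.13 to 5.92), and at 1425 and 1184 CPM in the CA1 set. Asic2, an acid-sensing ion channel, was at 1243 and 1214 CPM against 388.3 and 349.4 CPM, 3.20-fold and 3.48-fold, with 1278 and 852.9 CPM in the CA1 set and 1273 and 1206 CPM in inhibitory nuclei. Il1rapl2, a synaptic member of the interleukin-1 receptor family, was 3.65-fold and 4.44-fold above CA3, with large differences between mice: 283.1 and 103.6 CPM in the female and male 5XFAD mouse, and 212.6 and 121.4 CPM in the female and male mouse of the other library. Inhibitory nuclei had 533.5 and 452.0 CPM. Without the members that carry markers of other regions, described below, its ratio over CA3 was 2.22 (1.88 to 2.62) in the 5XFAD library and 4.59 (3.87 to 5.46) in the other. Zfp804a, a zinc finger protein, was at 928 and 911.5 CPM against 278.6 and 238.9 CPM in the CA3 set, 3.33-fold and 3.82-fold, and at 409 and 483 CPM in the CA1 set. Frmpd1, a scaffold protein that binds G protein regulators, and the unannotated Gm43154 completed the 10 highest, at 13.9 and 17.98 CPM and at 47.3 and 54.7 CPM.

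**Figure D2:**
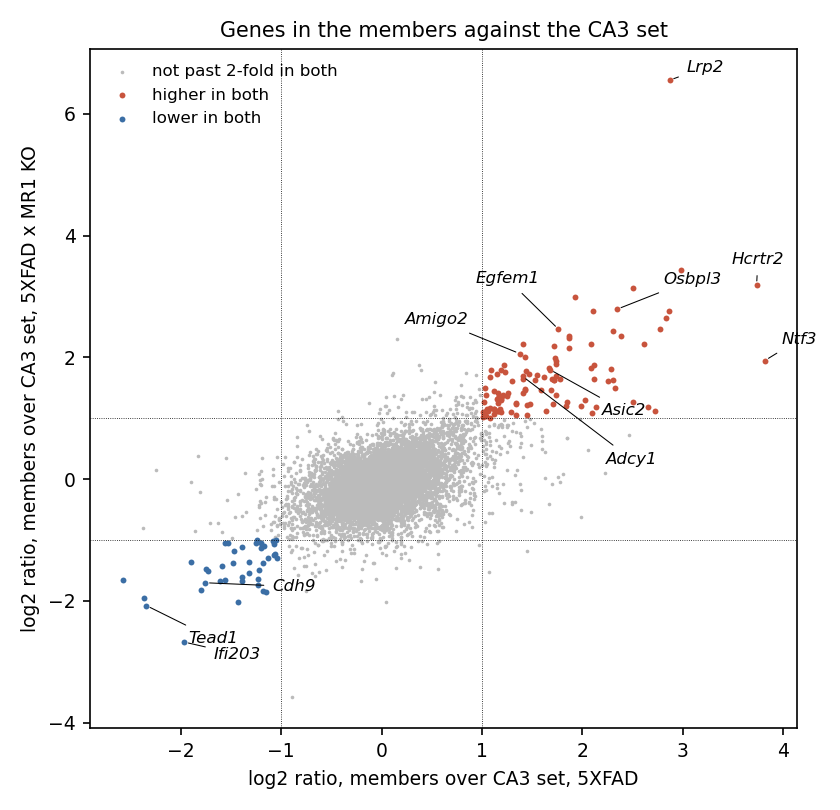
Each point is a gene with at least 100 UMIs. The axes give the log2 ratio of its CPM in the members over the CA3 set, in the 5XFAD library (horizontal) and the library labelled 5XFAD x MR1 KO (vertical). The 112 genes at least 2-fold higher in both libraries are red, the 40 at least 2-fold lower are blue, and dotted lines mark 2-fold.

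On the other side, Tead1, a transcription factor of the Hippo pathway, stood at 47.0 and 57.7 CPM against 239.0 and 243.5 CPM in the CA3 set, ratios of 0.197 (0.167 to 0.232) and 0.237 (0.199 to 0.280). The CA3 set was chosen by Nectin3 and Grik4 UMIs, and the part of that choice in this and the following ratios was not tested. Cdh9, a cadherin of mossy fibre to CA3 synapses, stood at 198.0 and 218.0 CPM against 669 and 709.7 CPM, ratios of 0.296 (0.272 to 0.321) and 0.307 (0.281 to 0.335). All 4 mice were low in Cdh9, between 147.9 and 241.5 CPM. Trps1, a GATA-type repressor, was at 608 and 765 CPM against 1375 and 1645 CPM, and Car10, a carbonic anhydrase-related synaptic protein, at 202.0 and 214.6 CPM against 561 and 484 CPM. Chst9, a sulfotransferase, had ratios of 0.167 and 0.318, Ifi203, an interferon-inducible gene, 0.256 and 0.156, Rasl10a, a small GTPase, 0.338 and 0.319, Adamtsl1, a matrix protein, 0.382 and 0.461, Cldn22, a claudin, 0.194 and 0.259, and Gm49127 0.287 and 0.284.

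Signalling lists were read against the CA3 set in the same way, beside 1.03% of all 10899 genes higher and 0.367% lower. Of 24 genes of calcium handling, 2 were at least 2-fold higher: Necab2 and Adcy1, the calmodulin-stimulated adenylyl cyclase, at 97.9 and 104.9 CPM against 37.0 and 32.5 CPM, with 197.8 and 113.9 CPM in the dentate set. Of 18 metabotropic glutamate receptors and scaffolds, 2 passed: Grm8, at 159.3 and 144.9 CPM against 78.0 and 51.3 CPM, and Homer2, a postsynaptic scaffold, at 79.7 and 93.6 CPM against 39.6 and 46.0 CPM. Without the members that carry markers of other regions, the ratio of Grm8 in the 5XFAD library was 1.17 (0.987 to 1.38). Of 17 immediate-early and activity-regulated genes, Dusp5, a phosphatase of ERK, passed, at 13.6 and 17.98 CPM against 2.38 and 2.04 CPM. Nr4a1, an activity-induced nuclear receptor, was at 20.7 and 20.6 CPM against 11.2 and 8.14 CPM, ratios of 1.84 (1.26 to 2.71) and 2.53 (1.65 to 3.90). None of 17 listed neuromodulator and steroid receptors and none of 14 ionotropic glutamate receptor subunits reached 2-fold in both libraries. Hcrtr2, given above, and Chrm2, a muscarinic receptor, were not in that list. Chrm2 had ratios of 4.31 (2.90 to 6.58) and 6.80 (3.62 to 13.7). Without the members that carry markers of other regions they were 1.55 (0.924 to 2.60) and 5.59 (2.88 to 11.5). Nr3c2, the mineralocorticoid receptor, stood at 1296 and 1295 CPM against 882 and 725 CPM, ratios of 1.47 (1.41 to 1.53) and 1.79 (1.70 to 1.87), and Oxtr, the oxytocin receptor, had 18 and 18 UMIs in the members, with ratios of 4.10 (1.47 to 14.1) and 1.95 (0.948 to 4.02).

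Perineuronal net and matrix genes gave 1 of 7 past 2-fold, beside 1.03% of all genes upward. It was Vcan (versican), at 22.02 and 25.1 CPM against 6.68 and 5.49 CPM. Vcan is also a marker of oligodendrocyte precursors, and oligodendrocyte and inhibitory nuclei had more of it, 26.8 and 32.1 CPM and 49.4 and 61.7 CPM. In potassium channel genes 1 of 28 passed, Kcnip1, a channel-interacting protein typical of interneurons, at 29.6 and 23.6 CPM against 10.7 and 7.12 CPM, with 212.1 and 384.9 CPM in inhibitory nuclei. The male mouse of the library labelled MR1 KO had only 3.09 CPM of Kcnip1 in its members. How much transcripts of neighbouring cells add to these genes in the members was not tested.

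Against CA1, the members were set apart by genes that the CA3 set also had. Ccbe1, a secreted matrix protein, was 20.5-fold (12.4 to 36.8) and 20.98-fold (10.6 to 48.8) higher than in the CA1 set, at 259.9 and 321.7 CPM, while the CA3 set had 277.2 and 302.1 CPM. Tspan18, a tetraspanin, was at 45.7 and 57.3 CPM in the members and 48.9 and 53.1 CPM in the CA3 set, while the CA1 set had 3 UMIs and 0 UMIs. Dpf3, a chromatin remodelling subunit, was 14.4-fold (6.52 to 39.5) and 22.4-fold (6.12 to 186) higher, on 6 and 2 UMIs in the CA1 set. Downward, 1.8% of genes passed 2-fold. Pde11a, a phosphodiesterase of cyclic nucleotides, was at 23.7 and 34.8 CPM against 167.2 and 283.7 CPM in the CA1 set, ratios of 0.141 (0.109 to 0.183) and 0.123 (0.0937 to 0.160). Galntl6, of the GalNAc transferase family, was at 801.9 and 686.8 CPM against 4067 and 4427 CPM. Ndst3, a heparan sulfate enzyme, had ratios of 0.163 and 0.194, and Cnih3, an AMPA receptor auxiliary protein, 0.198 and 0.176. Against the dentate set the member-high genes were led by Kcnq5, an M-current potassium channel, at 4067 and 3885 CPM against 221.6 and 225.6 CPM, and Mgat4c, a glycosyltransferase, 13.7-fold and 12.2-fold, and the member-low genes (4.11% of genes passed downward) by Adarb2, an RNA editing enzyme homologue, at 62.8 and 61.8 CPM against 1250 and 1291 CPM, and Stxbp6, a SNARE-binding protein, with ratios of 0.0396 and 0.0525.

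The members were not uniform. Those with Fyb2 had more of several CA2 markers and of Tshz2, a subicular and cortical gene, and less of Nectin3, Tead1, Cdh9 and Trps1. This split was chosen after the values were seen. With a Fyb2 UMI there were 149 and 134 members, of median depth 8866 and 8068 UMIs, and without 218 and 186, of 8925 and 6760 UMIs. Over the CA3 set, 5 of 8 CA2 markers were at least 2-fold higher in the Fyb2-positive members of both libraries, beside 1.35% of genes (1.54% were lower), and 2 of 7 in the Fyb2-negative members, beside 0.726% of genes (0.194% were lower). Amigo2 was at 28.5 and 56.0 CPM with Fyb2 and 18 and 24.1 CPM without, a ratio of 1.58 (1.00 to 2.50) in the 5XFAD library and 2.32 (1.52 to 3.59) in the other. Necab2 had ratios of 1.58 (1.12 to 2.24) and 1.56 (1.08 to 2.26), and Ptpn5 1.35 (1.12 to 1.63) and 1.97 (1.58 to 2.45). Map3k15, a stress-activated kinase, was at 11.3 and 22.9 CPM with Fyb2 and 6.92 and 4.69 CPM without, on 15 and 7 UMIs in the latter. Of the 6 Avpr1b UMIs in the library labelled MR1 KO, 5 lay in Fyb2-positive members, and of the 5 in the 5XFAD library, 3 did.

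Directly between Fyb2-positive and Fyb2-negative members, 0.106% of 7514 genes were at least 2-fold higher in both libraries, 8 genes, and 0.732% were at least 2-fold lower, 55 genes. Of the 8 CA2 markers, Ntf3 alone was among the higher genes, at 29.1 and 30.6 CPM against 8.31 and 5.36 CPM, ratios of 3.50 (1.98 to 6.44) and 5.70 (2.60 to 14.2). Adcy1 was at 152.2 and 156.2 CPM against 60.01 and 64.3 CPM. Egfem1 was 2.15-fold and 3.13-fold higher, and Gm43154 4.50-fold and 4.51-fold. Asic2, at 1757 and 1898 CPM against 884 and 675 CPM, was 1.99-fold and 2.81-fold higher. Of 7 CA3 markers tested, none passed 2-fold in either direction: Grik4 had ratios of 0.923 (0.849 to 1.00) and 0.940 (0.858 to 1.03), and Cpne4 was slightly higher with Fyb2, 1.15-fold (1.06 to 1.24) and 1.12-fold (1.03 to 1.22). The Fyb2-negative members had more of Gm32647, a non-coding RNA gene at 1585 and 2035 CPM against 377.8 and 545.8 CPM with Fyb2. Trps1 had ratios of 0.442 (0.400 to 0.487) and 0.312 (0.279 to 0.348) in the positive over the negative members, Cdh13, a cadherin, 0.337 and 0.271, Ephb1, an ephrin receptor, 0.391 and 0.200, Nectin3 0.547 and 0.611, and Tead1 0.445 and 0.401. A split by Vit moved some of these genes the same way: members with a Vit UMI had 1.70-fold (1.07 to 2.68) and 2.02-fold (1.35 to 3.04) the Amigo2 level of those without, and ratios of 0.530 and 0.374 for Tead1 and 0.766 and 0.482 for Cdh9. Nectin3 did not follow, with 1.21 (1.01 to 1.44) and 0.883 (0.710 to 1.09). A split by Il16 went the other way for Nectin3 (1.78 and 1.66), Tead1 (1.318 and 2.415) and Cdh9 (1.216 and 2.279). Amigo2 had 1.708 and 0.8645 there. With Col11a1, these 3 genes had ratios below 1 in both libraries, and Amigo2 had 1.547 and 1.553. All of these are rule genes, so members without one had to meet the rule through the others.

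**Figure D3:**
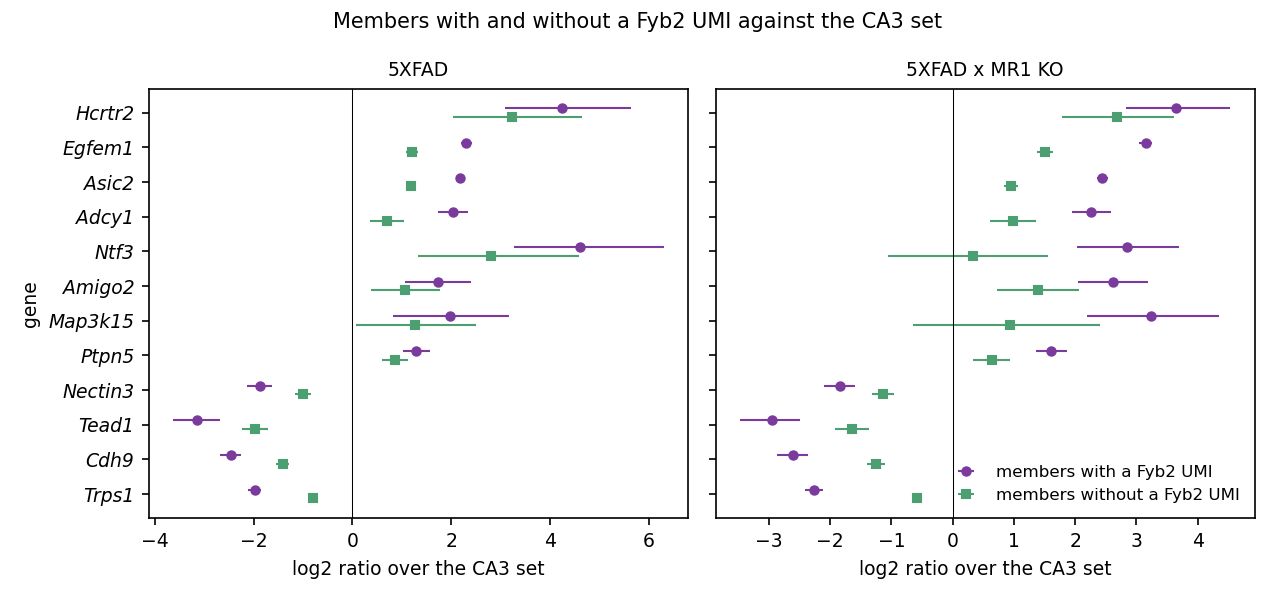
Points give the log2 ratio of CPM over the CA3 set for 12 genes in members with a Fyb2 UMI (circles) and without (squares), with exact 95% intervals for counting error, in each library. In both libraries Egfem1, Asic2 and Adcy1 lie farther above 0 and Nectin3, Tead1, Cdh9 and Trps1 farther below 0 with Fyb2. The intervals of Hcrtr2 over the CA3 set overlap. Its direct ratio in members with Fyb2 over those without was 2.02 (1.28 to 3.24) and 1.96 (1.24 to 3.13).

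Some members carried markers of regions outside CA2 and CA3. At least 2 UMIs of Foxp2, Rgs9, Tshz2 and Rorb, genes of striatal, cortical or subicular neurons, were found in 83 of 367 members of the 5XFAD library, 22.6% (18.4 to 27.2), and in 25 of 320 of the library labelled MR1 KO, 7.81% (5.12 to 11.3). By mouse the shares were 13.5% and 24.5% in the female and male 5XFAD mouse and 7.38% and 3.36% in the female and male mouse of the other library. Mossy cell markers (at least 2 UMIs of Csf2rb2 and Calb2) were found in 11 and 16 members. Of the 8 mossy cell markers listed, 3 had enough UMIs, and none was at least 2-fold above or below the CA3 set in both libraries. Csf2rb2 was not among these 3. Drd2 had ratios over the CA3 set of 23.9 (6.23 to 204) and 2.63 (0.904 to 8.14), on 42 and 10 UMIs. Sv2c had 2.52 and 0.772, Tm4sf1 1.43 and 0.433, and Ajap1, Nmb and Glipr1 lay between 1 and 2 in both libraries. Csf2rb2, on 20 and 28 UMIs, was 5.70-fold (1.91 to 22.9) and 6.44-fold (2.86 to 16.4) above the CA3 set, and 7.26-fold and 9.47-fold in the Fyb2-negative members, while Calb2 was 1.43-fold (0.760 to 2.71) and 1.67-fold (1.06 to 2.63) above it. At least 2 UMIs of glial markers (Mog, Mag, Gja1, Aqp4, Pdgfra and Csf1r) were found in 43 and 19 members. Fyb2-positive members were not free of the other-region markers, with 19.5% and 10.4%. Tshz2 was at least 2-fold above the CA3 set in both libraries, for all members and for the Fyb2-positive ones. Its ratio in members with Fyb2 over those without was 2.41 (1.93 to 3.01) and 1.55 (1.06 to 2.26). Foxp2 and Rgs9 went the other way in the 5XFAD library, with 0.229 and 0.323, and had intervals that hold 1 in the other. With the 83 and 25 nuclei left out, the same 5 CA2 markers stayed at least 2-fold above the CA3 set, beside 0.896% of genes (0.623% were lower), with Amigo2 at 26.2 and 40.5 CPM, Rgs14 at 18.6 and 19.9 CPM and Necab2 at 44.1 and 48.6 CPM, and Hcrtr2 kept ratios of 13.5 and 9.16.

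The share of members was 2.38% (2.15 to 2.63) of nuclei in the 5XFAD library, 367 of 15408, and 1.44% (1.28 to 1.60) in the library labelled MR1 KO, 320 of 22263, a ratio of 0.604 (0.518 to 0.703). The rule counts UMIs, however, and the second library was shallower. With each nucleus thinned to 4000 UMIs and shallower nuclei left out, a check added after the values were seen, the shares were 1.52% (1.26 to 1.81; 119 of 7838) and 1.60% (1.32 to 1.93; 111 of 6933), a ratio of 1.05 (0.807 to 1.38). Thinned to 2000 UMIs, where only 48 and 45 nuclei met the rule, the shares were 0.393% and 0.303%, a ratio of 0.771 (0.502 to 1.18). Both intervals hold 1, and both pooled ratios combine mice that went opposite ways. Fewer cells of this kind, fewer of their nuclei recovered and a different cut of tissue cannot be told apart in any of these shares.

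As a share of nuclei, the mice of each sex went opposite ways. At full depth the female shares were 2.93% (192 of 6561) and 1.04% (122 of 11729), a ratio of 0.355 (0.281 to 0.448), and the male shares 2.57% (106 of 4122) and 3.24% (119 of 3668), a ratio of 1.26 (0.963 to 1.66). Thinned to 4000 UMIs, the female ratio was 0.586 (0.387 to 0.878) and the male ratio 2.01 (1.27 to 3.18). At 2000 UMIs both intervals held 1, with 0.548 (0.263 to 1.12) for the females and 1.48 (0.714 to 3.11) for the males. Each of these ratios compares 1 mouse with 1 mouse. The makeup of the tissue also differed between mice, and against each neuron set the sexes went the same way. Per 100 CA3 nuclei there were 55.8 and 132.5 members in the female and male 5XFAD mouse, and 30.65 and 57.5 in those of the library labelled MR1 KO. Per 100 dentate nuclei there were 49.1 and 286.5, and 38.7 and 66.5, again lower for both sexes. Per 100 CA1 nuclei there were 290.9 and 271.8, and 369.7 and 425, higher for both. The male 5XFAD mouse had only 37 dentate and 39 CA1 nuclei.

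**Figure D4:**
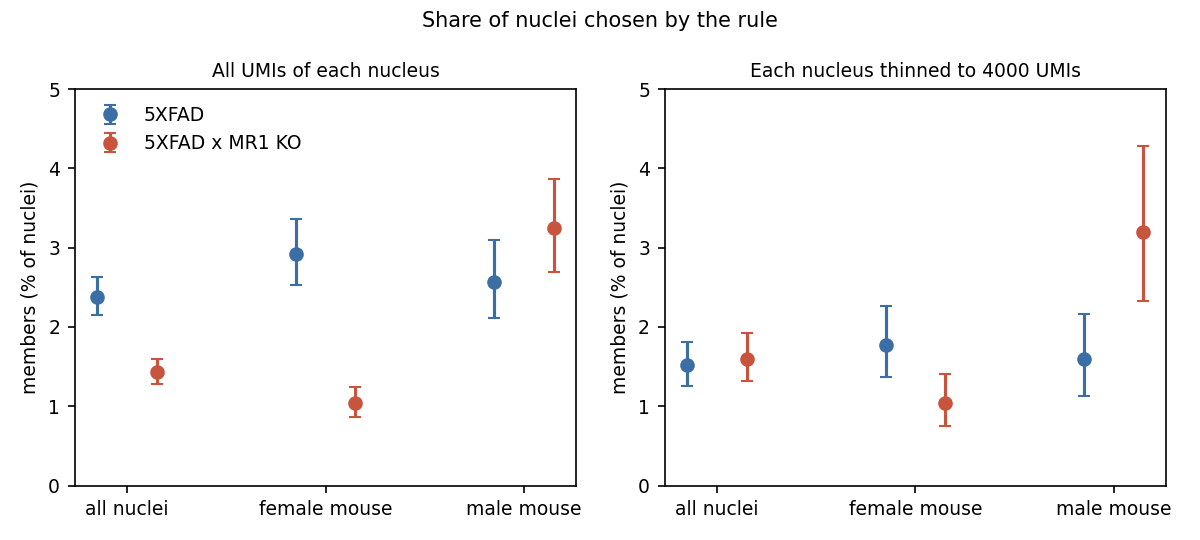
Points give the members as a percentage of nuclei, with exact 95% intervals, for all nuclei and for those assigned to the female or the male mouse of each library, at full depth (left) and with every nucleus thinned to 4000 UMIs (right). The libraries part at full depth, 2.38% against 1.44%, and not after thinning, 1.52% against 1.60%. By this share the female and male mice keep opposite directions.

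Between the libraries, 2.31% of 7526 genes were at least 1.5-fold higher and 2.07% at least 1.5-fold lower in the members of the library labelled MR1 KO, 174 and 156 genes. With median-ratio scaling in place of totals the split was 114 and 198 genes. The lower side was led by genes of other regions. Foxp2, a transcription factor of striatal and deep cortical neurons, stood at 14.5 and 117 CPM in the female and male 5XFAD mouse and at 2.06 and 2.06 CPM in those of the other library, a ratio of 0.101 (0.0568 to 0.168). Rgs9, a striatal G protein regulator, had a ratio of 0.121 (0.0590 to 0.224), Rarb, a retinoic acid receptor of striatal neurons, 0.204 (0.149 to 0.274), Sgcz, a sarcoglycan, 0.332 (0.301 to 0.366), and Rorb, a nuclear receptor of cortical layer neurons, 0.335 (0.235 to 0.468). The male 5XFAD mouse had the most Foxp2, Rgs9, Rarb and Sgcz. With the nuclei of other-region markers left out the ratios of Rgs9, Rarb, Sgcz and Rorb were 0.916, 0.707, 0.582 and 0.851. Foxp2 was left with 9 and 0 UMIs, a ratio of 0 (0 to 0.597). Foxp2, Rgs9 and Rorb had themselves chosen the nuclei removed. Chsy3, a chondroitin synthase, changed from 0.414 (0.338 to 0.505) to 0.774 (0.560 to 1.06), and Hs6st2, a heparan sulfate sulfotransferase, from 0.354 (0.251 to 0.490) to 0.607 (0.389 to 0.931). Dpp10, an auxiliary subunit of potassium channels, stood at 299.7 and 1864 CPM in the female and male 5XFAD mouse and at 252.8 and 373.5 CPM in the others, so that the male 5XFAD mouse was again the highest. Its ratio was 0.420 (0.393 to 0.449), and 0.552 (0.504 to 0.604) without those nuclei, with 0.400 in the CA3 set, 0.214 in the CA1 set and 1.35 in the dentate set.

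For 2 further low genes the ratio stayed under 0.3 in that check, and it was below 1 in several other sets as well. Tac1, the substance P precursor, was at 45.4 and 7.49 CPM, a ratio of 0.165 (0.0982 to 0.263), and 0.231 without the other-region nuclei. Its ratio was 0.124 in oligodendrocytes and 0.157 in the CA3 set. Penk, the enkephalin precursor, had a ratio of 0.231 (0.140 to 0.365) in the members, 0.242 without the other-region nuclei, 0.586 in oligodendrocytes and 1.19 in the dentate set.

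Higher in the library labelled MR1 KO was first Ttr, transthyretin, a product of the choroid plexus. It stood at 82.7 and 83.9 CPM in the female and male 5XFAD mouse and at 425.1 and 413.6 CPM in those of the other library, a ratio of 4.66 (4.10 to 5.30). The same ratio was 4.66 in the CA3 set and lay between 3.86 and 5.65 over the 6 other sets, a range that holds the members. Oligodendrocytes, which should lack it, held 288.5 and 1113 CPM.

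Other high genes had ratios nearer to 1 in some of the other sets, and several had higher ratios in others. Calb1, the calcium buffer calbindin, stood at 8.27 and 7.54 CPM in the 5XFAD mice and at 31.99 and 27.8 CPM in the others, with no overlap, a ratio of 2.72 (1.86 to 4.03), and its ratio was 2.16 in the CA3 set and 0.863 in the dentate set, where granule cells express it. A330008L17Rik, a non-coding RNA gene, was at 140.0 and 142.3 CPM against 240.4 and 249.0 CPM, a ratio of 1.75 (1.55 to 1.97). Its ratio was 1.23 in the CA3 set, 2.04 in the CA1 set, 2.09 in oligodendrocytes and below 1 in the dentate, inhibitory and microglia sets. Sema5a, a semaphorin, stood at 42.9 and 33.9 CPM against 94.9 and 80.2 CPM, a ratio of 1.78 (1.44 to 2.20), with 1.10 in the CA3 set and 1.73 in the CA1 set. No test of the members against the other sets was possible for these ratios. Hpgd, a prostaglandin dehydrogenase, had a ratio of 3.21 (2.11 to 4.99) and Ackr1, a chemokine scavenger receptor, 2.41 (1.67 to 3.51). Pigq, a GPI anchor enzyme, had 2.20 (1.47 to 3.31) and Cntnap1, a paranodal axon protein, 1.97 (1.45 to 2.69). Adamtsl1 had 1.70 (1.44 to 2.01) and Pard3b, a polarity protein, 2.08 (1.43 to 3.05). Ratios above those of the members were seen for Hpgd in the CA1 set (4.54) and for Ackr1 and Adamtsl1 in the dentate set (2.55 and 1.895). The same held for Sema5a in microglia (2.40) and Cntnap1 in oligodendrocytes (2.05). Calb1, Pigq and Pard3b had lower ratios in every other set.

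CA2 and CA3 markers differed little in sum between the pooled members. By sex, only the male ratios had intervals clear of 1, below it for CA2 and above it for CA3. The CA2 ratio was 1.07 (0.948 to 1.20) for the females and 0.847 (0.743 to 0.964) for the males, and the CA3 ratio 0.990 (0.939 to 1.04) and 1.17 (1.10 to 1.25). The CA2 list had a summed ratio of 0.978 (0.906 to 1.06), with 8 of 11 measured genes higher and a median log2 ratio of 0.12, beside a median of 0.06 and 58.3% higher over all 12997 genes measured. Of its 8 genes with at least 100 UMIs, Amigo2 passed 1.5-fold upward, with a ratio of 1.71 (1.27 to 2.32), 1.75 for the females and 1.36 for the males, and Pcp4 downward, with 0.656 (0.554 to 0.775). Pcp4 was lower in the 6 other sets too, for example at 223.9 and 141.0 CPM in oligodendrocytes. Of 12 CA3 markers 10 were higher, with a median of 0.21 and a summed ratio of 1.09 (1.05 to 1.13), 1.01 without the other-region nuclei. Dkk3, a secreted glycoprotein, was at 52.7 and 57.5 CPM against 89.8 and 86.4 CPM in the female and male mice of the libraries, a ratio of 1.60 (1.32 to 1.95), and Homer3 had a ratio of 1.53 (1.10 to 2.13).

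Antigen presentation and interferon genes were higher in the members of the library labelled MR1 KO, and so they were in every other set. Of 11 measured genes of MHC class I and peptide loading, 10 were higher, beside 58.3% of all genes measured. Their summed ratio was 1.35 (1.24 to 1.48), 1.56 for the females and 1.31 for the males. Pdia3, a chaperone of the peptide-loading complex, was at 39.97 and 68.2 CPM, a ratio of 1.70 (1.36 to 2.13), and H2-D1, a class I heavy chain, at 14.1 and 21.7 CPM, 1.54 (1.04 to 2.28). All 12 measured interferon response genes were higher, with a summed ratio of 1.45 (1.27 to 1.67) on 411 and 433 UMIs. Only 2 of them had 100 UMIs, and neither passed 1.5-fold. The summed ratio of the class I list was between 1.29 and 1.96 in the other 6 sets, and that of the interferon list between 1.45 and 1.91.

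Heat shock and chaperone genes were higher for 14 of 16 in the library labelled MR1 KO, beside 58.3% of all genes. With at least 100 UMIs, 1 of 14 passed 1.5-fold, beside 2.31% of all genes upward. The summed ratio was 1.21 (1.16 to 1.27) in the members and between 1.12 and 1.28 in the other sets. The gene that passed, Hspa5, the endoplasmic reticulum chaperone BiP, was at 53.7 and 60.3 CPM in the 5XFAD mice and 76.4 and 95.7 CPM in the others, a ratio of 1.51 (1.24 to 1.83), and Hsp90aa1 had 1.42 (1.22 to 1.64). Nuclear genes of oxidative phosphorylation were lower for 22 of 29, beside 5422 of all 12997 genes measured, and 0 of 29 passed 1.5-fold. The summed ratio was 0.895 (0.868 to 0.923), 0.946 for the females and 0.866 for the males, and 0.941 to 1.01 in the other sets. Cox6c, a subunit of complex IV, was at 214.5 and 164.4 CPM, a ratio of 0.766 (0.680 to 0.862). Median mitochondrial UMIs per member were 1.00% and 0.481%, and their part in these ratios was not tested.

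Genes of App processing and dystrophic neurites, the subject of the study, differed little. Of 24, 18 were higher, beside 58.3% of all genes, and the median log2 ratio was 0.13, beside 0.06 over all genes. The summed ratio was 1.05 (1.02 to 1.08). With at least 100 UMIs, 0 of 23 passed 1.5-fold, beside 2.31% of all genes upward and 2.07% downward. Neurite and cytoskeleton genes had a summed ratio of 1.01 (0.989 to 1.03), and 1 of 33 passed, Tubb3, a neuronal tubulin, with 1.62 (1.23 to 2.12). The App list had a summed ratio of 1.13 for the females and 0.966 for the males, and between 1.06 and 1.53 in the 6 other sets. Immediate-early and activity-regulated genes had a summed ratio of 0.890 (0.836 to 0.948), 1.01 for the females and 0.775 for the males, and 0.795 in the CA3 set. Of 23 measured, 10 were higher, the median log2 ratio was -0.05, and 0 of 11 with at least 100 UMIs passed 1.5-fold. The lower ones included Egr1, a transcription factor induced by activity, with 47 and 12 UMIs, a ratio of 0.352 (0.170 to 0.673), and Bdnf, brain-derived neurotrophic factor, 192 and 95 UMIs, a ratio of 0.681 (0.527 to 0.876). Markers of striatal neurons were lower for 7 of 7 measured genes, with a summed ratio of 0.666 (0.626 to 0.709), and 0.805 (0.750 to 0.864) without the nuclei of other-region markers, which Rgs9, a gene of this list, helped to choose. In the 6 other sets this ratio lay between 0.339 and 0.754. The subicular and cortical list had 0.627 (0.579 to 0.679), and its 3 genes past 1.5-fold, Foxp2, Tshz2 and Rorb, are among the genes that define the other-region nuclei, so its value without them, 0.921 (0.829 to 1.02), is set by that choice.

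**Figure D5:**
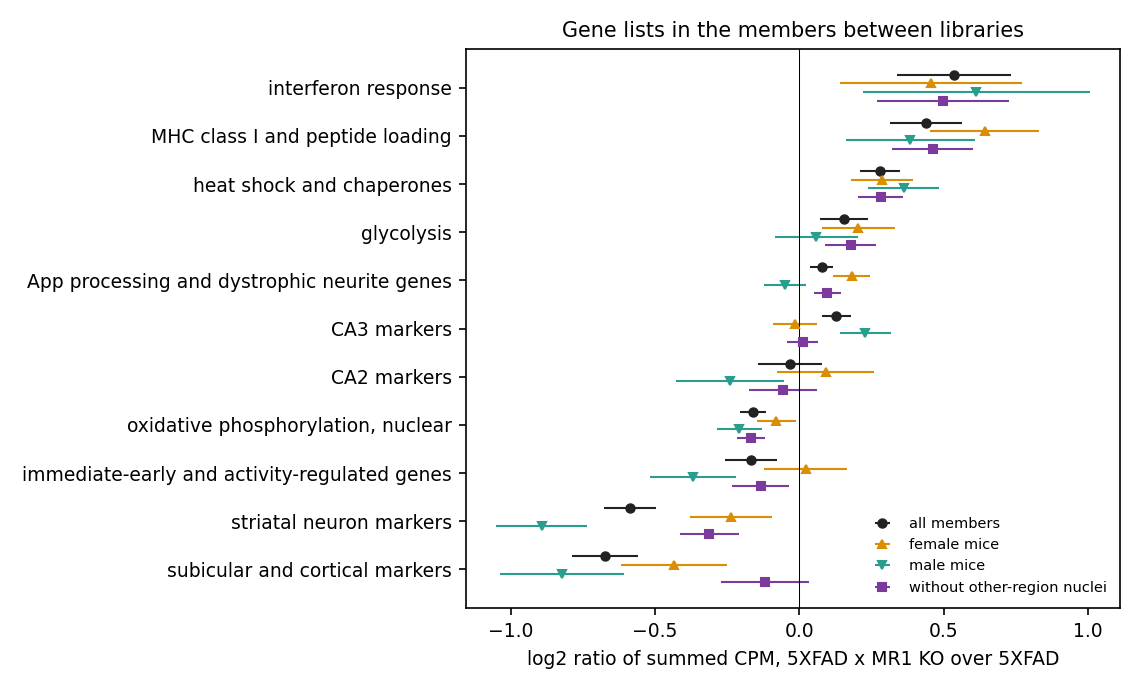
Points give the log2 ratio of the summed CPM of 11 gene lists in the members, library labelled 5XFAD x MR1 KO over 5XFAD, for all members, the female mice, the male mice, and without the members that carry markers of other regions, with exact 95% intervals for counting error. The interferon, class I and heat shock lists lie above 0 in all 4 versions, while the shift of the subicular and cortical list without those members follows from the markers that chose them.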

How the data were processed

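Nuclear RNA of 2 libraries was counted with Cell Ranger 7.0.0 against mm10, and Seurat is also named, per the submitters' processing notes. The sources used here give no intron or strand setting. The deposited matrices hold raw UMI counts per gene and barcode, not normalized by the authors. From these, members and comparison sets were chosen by UMIs of named genes and summed per library as CPM. Nuclei went to the female mouse (at least 2 Xist UMIs, none Y-linked) or the male (at least 1 Y-linked UMI, no Xist). With 1 library per group no count model was fitted. Ratios carry exact conditional binomial 95% intervals and shares Clopper-Pearson intervals. Genes needed 100 UMIs over the groups compared, list genes 20, and list medians used a prior count of 0.5. A gene was counted past 1.5-fold between libraries, or past 2-fold in both libraries between sets. No doublet caller was run. Some genes are not reported here and were left out of the sets and lists.

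Genes were named by the interval bound nearest to 1: between libraries, the 10 highest and 10 lowest with the same direction in both sexes and at least 20% of their highest level over the sets. Against the CA3 set, with the same direction in both libraries, the 10 highest and lowest qualified, and against CA1 and dentate sets 6 each way, from which some are given. List genes were named by UMIs or by intervals beyond 1. The members and lists were chosen with earlier results of these data known. The Fyb2 split, the other-region check, thinning to 4000 UMIs and the Stard5 and Il16 check were added after seeing the data. Of 32280 features, 32160 matched GENCODE M21 by ID. The ratio code was tested on simulated data. Tools were Python 3.11.15, numpy 2.4.6, pandas 2.3.3, scipy 1.17.1 and matplotlib 3.10.9. Alternatives included other limits on genes, mitochondrial UMIs, rule UMIs, depth, doublet hints and glial UMIs.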

Additional observations from a re-analysis of the deposited data

Results flagged for a closer look

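The share of nuclei chosen as members was lower in the library labelled MR1 KO for the female mice, and for the male mice its ratio was above 1 with an interval that holds 1. In the female mice the share in the library labelled MR1 KO was 0.355 times that in the 5XFAD library (0.281 to 0.448), and in the male mice it was 1.26 times (0.963 to 1.66). Each value compares 1 mouse with 1 mouse, and the difference between the ratios was not tested.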

How the results depend on the processing

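With 1 library per group no result has a replicate, and 20 settings, 16 of them planned, were compared by size alone. No paired analysis was possible because each group has 1 library. The member share (2.38% and 1.44%) was 2.71% and 1.79% with at least 1000 genes, 4.61% and 2.61% with under 1% mitochondrial UMIs, and 1.68% in the 5XFAD library with no mitochondrial limit. It was 1.30% and 0.755% with at least 6 rule UMIs, 1.25% and 0.795% with 3 rule genes, 0.967% and 0.602% for members with Fyb2, and 1.99% and 1.13% with Stard5 and Il16 counted as 1 gene. Thinning gave 0.393% and 0.303% at 2000 UMIs and 1.52% for 5XFAD at 4000. Female mice had 2.93% and 1.04% and the male mouse of the library labelled MR1 KO 3.24%.

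Genes 1.5-fold higher between libraries (174) numbered 111 with 6 rule UMIs, 44 thinned, 112 in male mice, 114 with median-ratio scaling, 446 and 26 with at least 50 and 300 UMIs per gene, and 89 with Fyb2. Those lower (156) numbered 94 under 1% mitochondrial UMIs, 84 with 6 rule UMIs, 80 with 3 rule genes, 60 thinned, 95 in female mice, 329 and 47 with at least 50 and 300 UMIs per gene, and 78 without other-region nuclei. Genes 2-fold above CA3 (112) numbered 69 thinned, 72 in female and 71 in male mice, and 62 with at least 300 UMIs. Those below (40) numbered 87 with 6 rule UMIs, 89 with 3 rule genes, 19 thinned, 24 in male mice, 15 with at least 300 UMIs and 154 with Fyb2. Settings with fewer nuclei or UMIs test fewer genes. Other causes were not tested.

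Lists with a median above 0 were 23 of 30, and 15 of 27 thinned and 14 of 28 in male mice. Of the ratios of named genes under the alternatives, 252 stayed, 67 moved and 1 reversed, Pard3b (0.933 with 3 rule genes). Genes under 100 UMIs, such as Avpr1b, are limited by depth.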

Other observations

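Adhesion and channel genes were also read against CA1 and dentate neurons, sets from which more of all genes differed than from the CA3 set. Of 39 adhesion and guidance genes, 6 were at least 2-fold above the CA1 set in both libraries, where 2.3% of all genes were, and 4 were at least 2-fold below, where 1.8% were. Of 41 over the dentate set, 9 were higher, beside 3.73% of all genes, and 3 lower, beside 4.11%. Against the CA3 set 1 of 39 was higher, beside 1.03% of all genes, and 1 lower, beside 0.367%. No difference between these counts was tested. Unc5c, a netrin receptor, stood at 1119 and 1374 CPM in the members against 522.6 and 552.0 CPM in the CA1 set. The semaphorin receptor Nrp1 was at 382.3 and 409.3 CPM against 154.5 and 157.2 CPM. Below CA1 were, among others, teneurins, which are synaptic adhesion proteins: Tenm1 had ratios of 0.384 (0.349 to 0.422) and 0.317 (0.280 to 0.360), and Tenm3 0.328 (0.303 to 0.354) and 0.277 (0.244 to 0.316). Sema3e, a secreted semaphorin, was 8.60-fold and 3.11-fold above the dentate set, and stood at 0.840 and 0.818 times the CA1 level.

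Of 28 potassium channel genes, Kcnq5 was at least 2-fold above CA1 and 2 were at least 2-fold below it, Kcnab1, a beta subunit, and Kcnh7, an ERG-type channel, at 407.6 and 229.9 CPM against 1306 and 801.1 CPM. Above the dentate set were Kcnq5, Kcnn2, a calcium-activated channel, with ratios of 3.06 and 3.54, and Kcnc2, a fast delayed rectifier, with 5.46 and 5.41. Of 15 neuromodulator and steroid receptors, 1 passed 2-fold above CA1 in both libraries, the neuropeptide Y receptor Npy2r, with ratios of 2.38 (1.33 to 4.63) and 7.29 (2.43 to 35.9). The mineralocorticoid receptor Nr3c2 was 1.89-fold (1.75 to 2.03) and 2.10-fold (1.87 to 2.36) above CA1. Chrm3, a muscarinic receptor, was at 742.3 and 724.3 CPM in the members against 84.8 and 114.5 CPM in the dentate set, and near the CA1 level.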
